A study of Mus musculus with 10 samples.

Results

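The 9 genes described here belong to JAK-STAT signalling, the route that prolactin and other cytokines use, and to its feedback control. They are the kinases Jak1 and Jak2, the transcription factors Stat3, Stat5a, Stat5b and Stat6, and the inhibitors Cish, Socs2 and Socs3. They were taken as named genes of the pathway, and each was read from the probe sets whose annotation gives that gene as the only symbol. Where a gene had more than 1 such probe set, the brightest over all arrays was used. All 9 passed the filter on dim probe sets and were among the 15815 genes tested.

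Total RNA of sorted mouse mammary epithelial cells was hybridised to 10 Affymetrix arrays, with 1 array per sample. The mutant samples were 3 arrays of MaSCs from Pygo2 SSKO mice, the luminal samples were 3 arrays of mature luminal cells from control mice, and the controls were 4 arrays of MaSCs from control mice. MaSCs are the mammary stem and basal cell fraction, sorted as CD29-high and CD24-positive, and the mature luminal cells were sorted as CD29-low, CD24-positive and CD61-negative. All mice were virgin females aged 8 to 12 weeks, and mutants and controls were littermates that shared a cage. Glands were digested with collagenase, and cells with CD31, CD45 or TER119 on their surface were sorted out. Per the series title, Pygo2 is null in the mutant cells. The sources used here do not give what SSKO stands for, which promoter drives the deletion or how many animals went into a sample. The sample titles call the arrays of a group biological replicates. The p-values rest on the spread among these arrays alone, and how far it reflects separate animals is not known. Luminal cells of SSKO mice were not analysed here.

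Prolactin binding brings together receptor-bound Jak2, which phosphorylates the receptor and then STAT proteins, and phosphorylated STAT dimers enter the nucleus and bind DNA. In the mammary gland Stat5a is the STAT needed for alveolar growth and milk protein genes in pregnancy and lactation, and Stat3 is the one needed for cell death when the gland regresses after weaning. Cish, Socs2 and Socs3 are induced by STATs and dampen the same receptors, which closes a feedback loop.

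Pygo2, the gene deleted in the mutants, had log2 values of 6.99, 5.94 and 5.86 in SSKO MaSCs, against 8.30, 9.09, 8.11 and 8.91 in control MaSCs. The groups did not overlap, and the difference was -2.34 (standard error 0.32, limma adjusted p = 0.0441). The call was near the threshold and was lost in other fits, where no gene was called lower. Among these were quantile normalization, the replicate block and the fits without control MaSC array 2 or SSKO MaSC array 3. The mutant mean of 6.26 lay below the level of 6.74 under which probe sets were treated as dim. Which part of the gene the probes read was not examined here. Spearman correlations over the 15815 genes tested were between 0.940 and 0.980 for an SSKO and a control MaSC array. They were between 0.702 and 0.809 for a Luminal and a control MaSC array. All 12 basal markers tested were lower and all 10 mature luminal markers tested were higher in control Luminal cells than in control MaSCs. Luminal array 3 had the highest mean basal marker level of its group, 10.03 on the log2 scale against 8.04 and 8.53.

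Levels are given throughout as log2(intensity + 16), so a difference of 1 is a doubling on that scale. A gene was called changed at a Benjamini-Hochberg adjusted p under 0.05 over all 15815 genes in a limma fit to the 10 arrays. Probe sets of different genes bind with different strength, so levels were compared between samples and not between genes.

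Mature luminal cells differed from MaSCs in most of the 9 genes. Stat5a, Stat5b, Jak2 and Stat6 were higher, and Jak1, Stat3, Socs2 and Cish were lower, in control Luminal cells than in control MaSCs. That made 8 of 9 genes called, 4 in each direction, where 44.3% of all genes tested were called, 24.6% higher and 19.7% lower. The largest differences were those of Stat5a and Stat5b, above 3-fold. In all 9 genes the Luminal and control MaSC arrays did not overlap, which was true of 46.3% of all genes tested. The median difference of the 9 genes was -0.50, against 0.07 over all genes. It does not describe a shared direction, as 4 differences were above 0 and 5 below. The mean level of the 9 genes was between 11.11 and 11.43 on the Luminal arrays and between 10.99 and 11.26 on the control MaSC arrays. In SSKO MaSCs none of the 9 genes was called against control MaSCs, where 0.0379% of all genes were called.

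**Figure D1:**
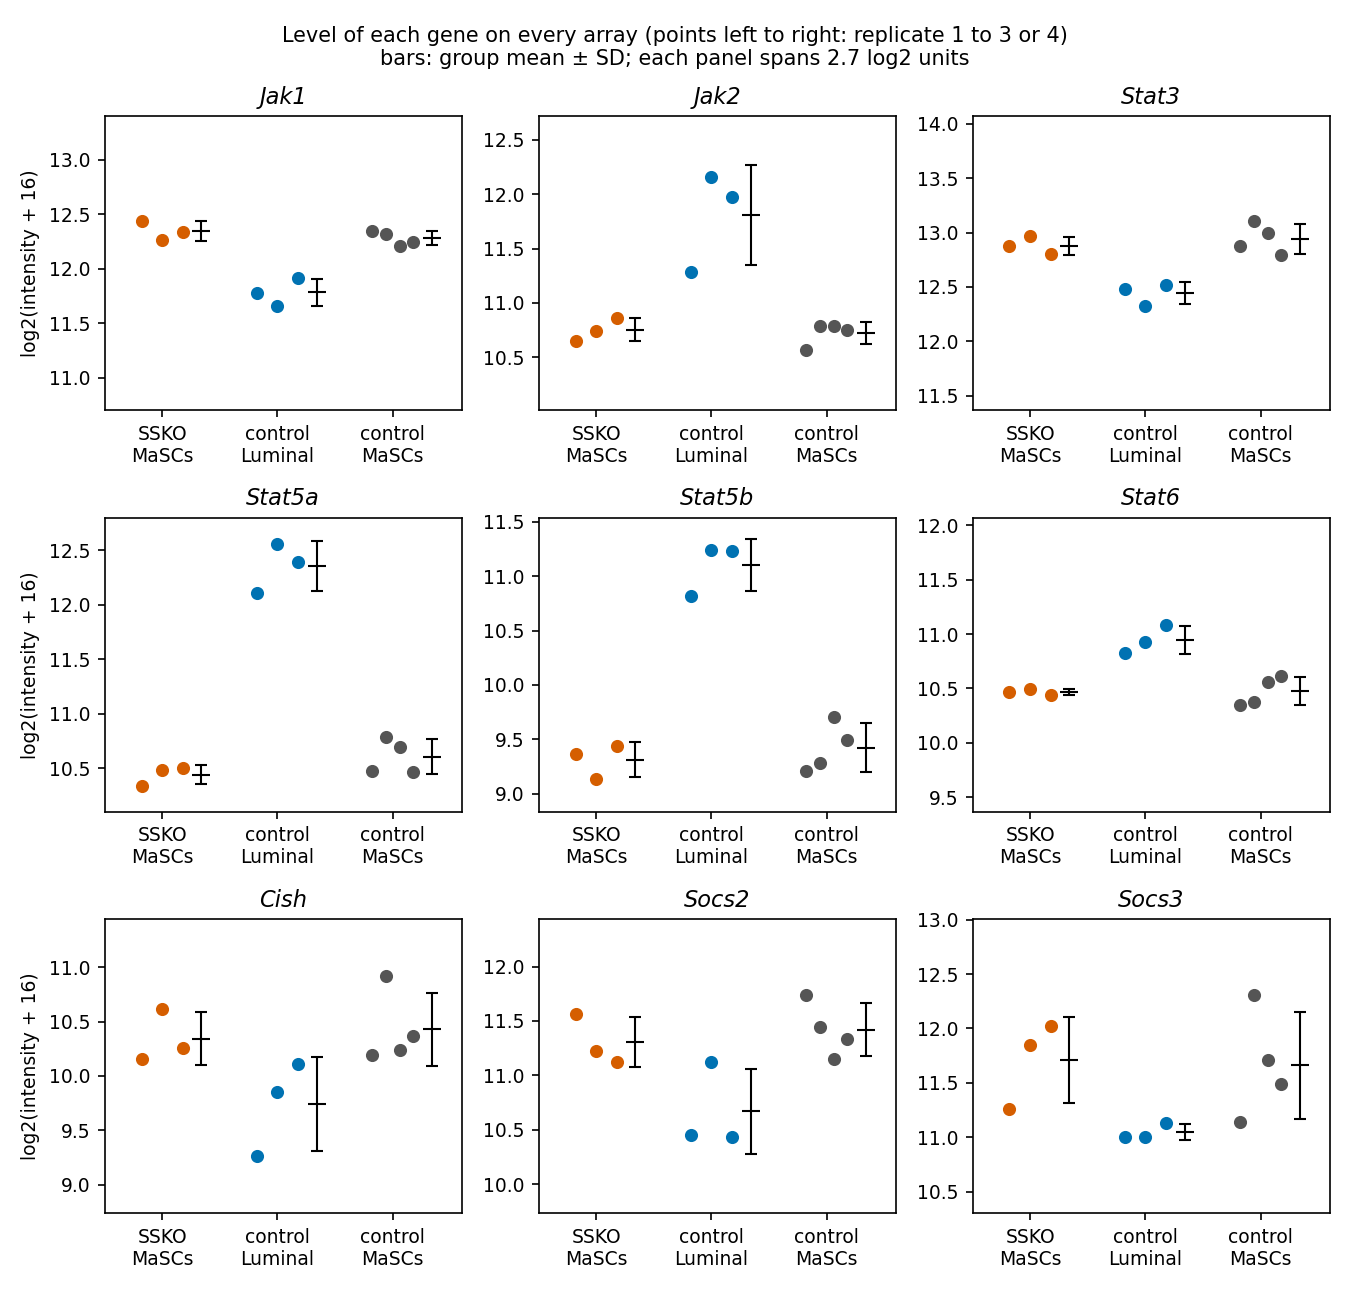
Log2(intensity + 16) of each of the 9 genes (1 panel per gene) on every array, with SSKO MaSCs, control Luminal cells and control MaSCs from left to right; points are arrays and bars are group means ± SD. The Luminal points of Stat5a, Stat5b and Jak2 lie above all MaSC points, and those of Jak1 and Stat3 lie below them.

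Jak2 is the kinase bound to the prolactin receptor. It had log2 values of 10.65, 10.75 and 10.86 in SSKO MaSCs, 11.29, 12.16 and 11.98 in control Luminal cells and 10.57, 10.79, 10.79 and 10.75 in control MaSCs. All Luminal arrays were above all MaSC arrays, and the mutant and control MaSC arrays covered the same narrow range. Luminal array 1 was the lowest of its group. Jak2 averaged 11.81 ± 0.46 in control Luminal cells and 10.73 ± 0.10 in control MaSCs (SD, n = 3 and 4), a 2.11-fold higher level (difference 1.08, standard error 0.19, limma adjusted p = 0.000608).

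Jak1, which serves interferon and interleukin-6 family receptors, ran the other way. Its log2 values were 12.44, 12.26 and 12.33 in SSKO MaSCs, 11.78, 11.66 and 11.91 in control Luminal cells and 12.35, 12.32, 12.21 and 12.25 in control MaSCs. The Luminal arrays were the 3 lowest. Jak1 averaged 11.78 ± 0.13 in control Luminal cells and 12.28 ± 0.06 in control MaSCs (SD, n = 3 and 4), which is 1.41-fold lower (difference -0.50, standard error 0.11, limma adjusted p = 0.00309).

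Stat5a is the main STAT of prolactin signalling in the gland. It had log2 values of 10.34, 10.48 and 10.50 in SSKO MaSCs, 12.10, 12.56 and 12.39 in control Luminal cells and 10.48, 10.79, 10.70 and 10.46 in control MaSCs. The gap between the lowest Luminal array and the highest MaSC array was wider than the range within any group. Stat5a averaged 12.35 ± 0.23 in control Luminal cells and 10.60 ± 0.16 in control MaSCs (SD, n = 3 and 4). The difference of 1.75 (standard error 0.14, 95% interval 1.44 to 2.06, limma adjusted p = 1.95e-06) is 3.36-fold.

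Stat5b, its close paralog and the main STAT of growth hormone signalling in liver, followed Stat5a. Its log2 values were 9.36, 9.13 and 9.44 in SSKO MaSCs, 10.82, 11.24 and 11.23 in control Luminal cells and 9.21, 9.28, 9.71 and 9.49 in control MaSCs. Again every Luminal array was above every MaSC array. Stat5b averaged 11.10 ± 0.24 in control Luminal cells and 9.42 ± 0.23 in control MaSCs (SD, n = 3 and 4), 3.19-fold higher (difference 1.67, standard error 0.16, 95% interval 1.32 to 2.03, limma adjusted p = 8.02e-06). Pearson's r between Stat5a and Stat5b over the 10 arrays was 0.978, a description in which both genes share the arrays and the 3 groups. Because the paralogs are similar in sequence, signal from one binding to the probes of the other was not examined, and the 2 values may not be separate.

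Stat3 lies beside Stat5a and Stat5b on mouse chromosome 11, and the 3 are next to each other among the protein-coding genes of the RefSeq annotation. Its level ran opposite to theirs. Stat3 had log2 values of 12.88, 12.97 and 12.80 in SSKO MaSCs, 12.48, 12.33 and 12.52 in control Luminal cells and 12.88, 13.10, 12.99 and 12.80 in control MaSCs. All Luminal arrays were below all MaSC arrays. It averaged 12.44 ± 0.10 in control Luminal cells and 12.94 ± 0.14 in control MaSCs (SD, n = 3 and 4), 1.41-fold lower (difference -0.50, standard error 0.12, limma adjusted p = 0.00439).

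Stat6 is the STAT of interleukin-4 and interleukin-13. Its log2 values were 10.47, 10.49 and 10.44 in SSKO MaSCs, 10.83, 10.93 and 11.08 in control Luminal cells and 10.35, 10.38, 10.56 and 10.62 in control MaSCs. Every Luminal array was above every MaSC array. Stat6 averaged 10.95 ± 0.13 in control Luminal cells and 10.48 ± 0.13 in control MaSCs (SD, n = 3 and 4), 1.39-fold higher (difference 0.47, standard error 0.12, limma adjusted p = 0.00618).

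Of the 3 inhibitors, Cish and Socs2 were called lower in control Luminal cells and Socs3 was not called. Cish, which encodes an SH2-domain protein that docks on receptors and competes with STAT5, had log2 values of 10.16, 10.62 and 10.25 in SSKO MaSCs, 9.26, 9.86 and 10.11 in control Luminal cells and 10.19, 10.92, 10.24 and 10.37 in control MaSCs. The highest Luminal array was just below the lowest control MaSC array. Cish averaged 9.74 ± 0.43 in control Luminal cells and 10.43 ± 0.34 in control MaSCs (SD, n = 3 and 4), 1.61-fold lower (difference -0.69, standard error 0.23, limma adjusted p = 0.031). The call rested on single arrays: it was lost without Luminal array 1 (-0.45, adjusted p = 0.152), without Luminal array 2 (-0.74, adjusted p = 0.0537) and without control MaSC array 2 (-0.52, adjusted p = 0.0728).

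Socs2, an inhibitor best known for restraining growth hormone signalling, had log2 values of 11.56, 11.22 and 11.13 in SSKO MaSCs, 10.45, 11.12 and 10.44 in control Luminal cells and 11.74, 11.45, 11.15 and 11.34 in control MaSCs. Luminal array 2 nearly reached the lowest MaSC arrays. Socs2 averaged 10.67 ± 0.39 in control Luminal cells and 11.42 ± 0.24 in control MaSCs (SD, n = 3 and 4), 1.68-fold lower (difference -0.75, standard error 0.20, limma adjusted p = 0.00984). A second, dimmer probe set of Socs2 gave a difference of -0.51 (standard error 0.17, limma adjusted p = 0.0295 over 17296 probe sets).

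Socs3 blocks Jak kinases at receptors of the interleukin-6 family. Its log2 values were 11.26, 11.85 and 12.02 in SSKO MaSCs, 11.01, 11.00 and 11.14 in control Luminal cells and 11.14, 12.31, 11.71 and 11.49 in control MaSCs. The 3 Luminal arrays were close together, while control MaSC arrays 1 and 2 were more than a log2 unit apart. Luminal array 3 and control MaSC array 1 were equal to 2 decimals, so that the groups only just did not overlap. The difference between control Luminal cells and control MaSCs was -0.61 (standard error 0.25, 95% interval -1.17 to -0.05), with a limma adjusted p of 0.0731, so Socs3 was not called. Without control MaSC array 1 the difference was -0.79 and passed (adjusted p = 0.0197), and without control MaSC array 2 it was -0.40 and did not (adjusted p = 0.156). The second probe set of Socs3 gave -0.65 (standard error 0.29, limma adjusted p = 0.096 over 17296 probe sets), and on it Luminal array 3, at 8.92, was above control MaSC array 1, at 8.73.

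**Figure D2:**
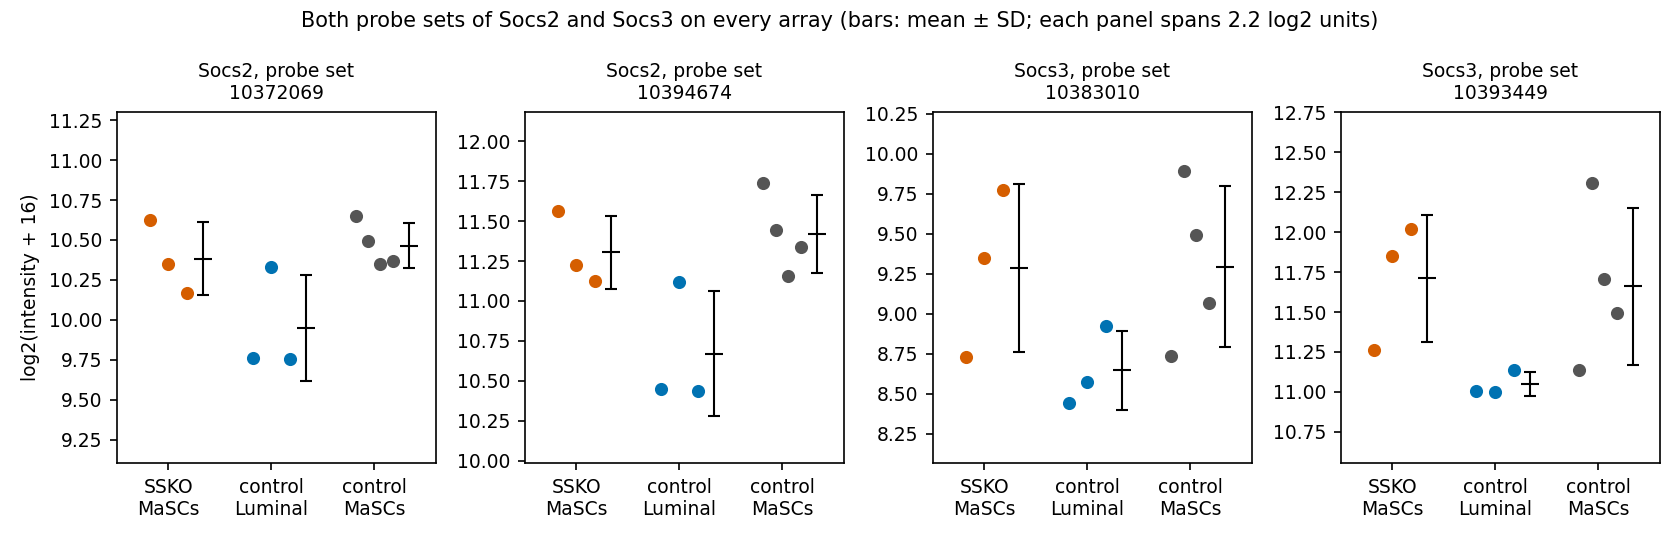
Log2(intensity + 16) on every array for both probe sets of Socs2 and of Socs3, the dimmer one left of the brighter one that stands for the gene, with bars for the mean ± SD and SSKO MaSCs, control Luminal cells and control MaSCs from left to right. In each gene the arrays have nearly the same order in the 2 probe sets, and Luminal array 2 is the highest Luminal array for Socs2 in both.

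STAT dimers bind the palindrome TTCNNNGAA, which reads the same on both strands. RefSeq promoters of 300 bases (250 before the annotated start and 50 from it on, GRCm38.p6) were found for 8 of the 9 genes, in 10 entries. Socs2 had no entry. The palindrome occurred in the promoters of 2 genes, Cish with 2 matches and Socs3 with 1, while 8.30% of 32851 promoters hold at least 1 match and 0.457% hold 2 or more. Both promoters are shown because they hold a match, with the palindromes in capitals. The Cish promoter lies at chr9:107296409-107296708 on the plus strand, and its matches begin 1 and 12 bases into the transcript. The Socs3 promoter lies at chr11:117969317-117969616 on the minus strand, and its match runs from position -154 to position -146 relative to the start. A match describes the letters only, and binding was not measured.
Cish: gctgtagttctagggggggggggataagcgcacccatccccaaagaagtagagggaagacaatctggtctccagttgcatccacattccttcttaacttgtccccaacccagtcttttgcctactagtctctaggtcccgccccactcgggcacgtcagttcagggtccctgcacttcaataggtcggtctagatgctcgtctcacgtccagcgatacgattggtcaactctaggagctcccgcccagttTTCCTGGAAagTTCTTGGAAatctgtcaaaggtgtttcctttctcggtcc
Socs3: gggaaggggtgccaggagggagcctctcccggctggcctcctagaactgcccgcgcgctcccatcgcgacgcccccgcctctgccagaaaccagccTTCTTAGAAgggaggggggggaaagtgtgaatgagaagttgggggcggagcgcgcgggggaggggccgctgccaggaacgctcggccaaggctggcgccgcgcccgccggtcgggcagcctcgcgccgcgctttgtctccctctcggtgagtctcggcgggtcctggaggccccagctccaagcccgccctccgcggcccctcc

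The comparison of SSKO with control MaSCs asks what changes with Pygo2 in the same cell fraction. None of the 9 was called in SSKO MaSCs against control MaSCs, and none had an unadjusted p under 0.05, which 3.03% of all genes had. The mutant and control arrays overlapped in all 9 genes, and 4.46% of all genes had groups that did not overlap. With shares this small over all genes, finding none among 9 genes does not set them apart. The median difference was -0.06, against 0.01 over all genes, with 6 of 9 genes below 0 and 3 above. The limma adjusted p rounded to 1 for each gene.

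**Figure D3:**
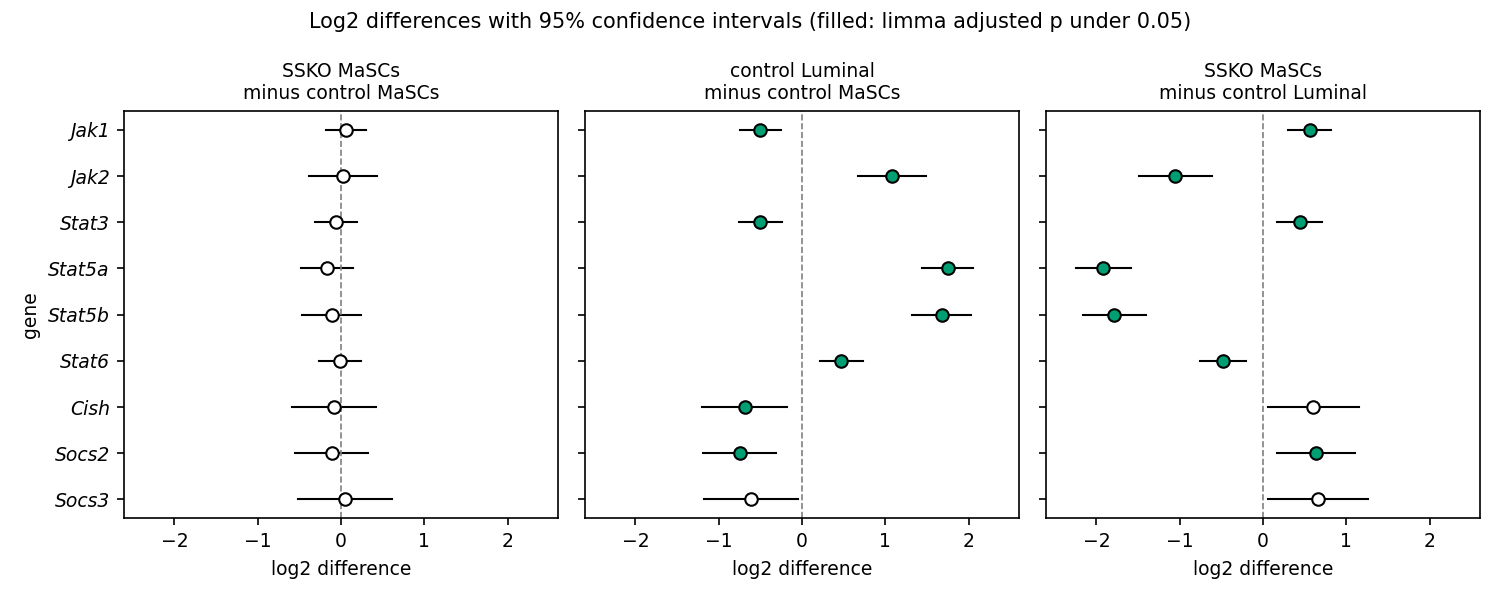
Log2 difference of each of the 9 genes with its 95% interval, for SSKO MaSCs minus control MaSCs, control Luminal cells minus control MaSCs, and SSKO MaSCs minus control Luminal cells. The intervals of the mutant comparison all include 0, and those of Stat5a and Stat5b are the farthest from 0 where Luminal cells are involved.

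The intervals show which sizes of difference these arrays leave possible. Stat5a averaged 10.44 ± 0.09 in SSKO MaSCs and 10.60 ± 0.16 in control MaSCs (SD, n = 3 and 4), a difference of -0.17 with a 95% interval of -0.47 to 0.14. The interval of Stat5b was -0.46 to 0.24, that of Stat3 was -0.32 to 0.19, and that of Stat6 was -0.27 to 0.24. Among the kinases, it was -0.18 to 0.30 for Jak1 and -0.38 to 0.44 for Jak2. The inhibitors varied more between arrays, and their intervals were -0.59 to 0.42 for Cish, -0.55 to 0.33 for Socs2 and -0.51 to 0.61 for Socs3. The difference in Socs3 was 0.05 on the brighter probe set and -0.01 on the dimmer one.

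Socs3 and Socs2 varied between MaSC arrays of 1 genotype. Array 1 was the lowest for Socs3 in both genotypes, at 11.26 in SSKO MaSCs and 11.14 in control MaSCs, and the highest for Socs2 in both, at 11.56 in SSKO MaSCs and 11.74 in control MaSCs. Endothelial markers also differed between arrays: the mean log2 level of 12 such markers was 10.85, 8.18 and 9.93 in SSKO MaSCs and 9.92, 8.31, 8.76 and 8.67 in control MaSCs. All 12 were higher on average in SSKO MaSCs, with a median difference of 0.63, and none was called. Mature luminal markers had array means between 10.63 and 11.02 in SSKO MaSCs and between 9.71 and 10.59 in control MaSCs, with 1 of 10 called higher. The median difference of the mature luminal markers was 0.68. With the endothelial level as a covariate, 0 of the 9 genes were called. The part of the mature luminal markers was not tested.

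Against luminal cells, mutant MaSCs differed in most of the 9 genes. Of these, 7 were called in SSKO MaSCs against control Luminal cells, 3 higher and 4 lower, where 42.3% of all genes were called, 19% higher and 23.3% lower. The arrays did not overlap in any of the 9 genes, as in 54.4% of all genes. This comparison shares its Luminal arrays with the one above, so the 2 are not independent. The median difference was 0.44, against -0.03 over all genes, with 5 differences above 0 and 4 below.

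Stat5a was 3.77-fold lower in SSKO MaSCs than in control Luminal cells (difference -1.91, standard error 0.15, limma adjusted p = 2.08e-06). Stat5b was 3.44-fold lower (difference -1.78, standard error 0.17, limma adjusted p = 1.03e-05), and Jak2 was 2.07-fold lower (difference -1.05, standard error 0.20, limma adjusted p = 0.00129). Stat6 differed by -0.48 (limma adjusted p = 0.00854). Of the genes that were higher in SSKO MaSCs, Jak1 differed by 0.56 (limma adjusted p = 0.00248), Stat3 by 0.44 (limma adjusted p = 0.0144) and Socs2 by 0.64 (limma adjusted p = 0.0331). Socs3, at 0.66 (limma adjusted p = 0.0726), and Cish, at 0.60 (limma adjusted p = 0.0721), were not called.

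The calls of Stat3 and Socs2 in this comparison depended on single arrays. Stat3 lost its call without SSKO MaSC array 2 (0.40, adjusted p = 0.0587) or Luminal array 2 (0.38, adjusted p = 0.0611). Socs2 lost its call without SSKO MaSC array 1 (0.51, adjusted p = 0.122), SSKO MaSC array 2 (0.68, adjusted p = 0.0591), Luminal array 1 (0.53, adjusted p = 0.12) or Luminal array 3 (0.52, adjusted p = 0.11), and its dimmer probe set was not called (0.43, adjusted p = 0.0804). Cish gained a call without control MaSC array 2 (0.60, adjusted p = 0.0417), an array that enters only through the shared spread, and without Luminal array 3 (0.79, adjusted p = 0.0333), while without Luminal array 1 its difference was 0.36 (adjusted p = 0.279). Socs3 was called in 7 of 23 alternatives, among them those without SSKO MaSC array 1 (0.89, adjusted p = 0.0293), control MaSC array 1 (adjusted p = 0.0439) or control MaSC array 2 (adjusted p = 0.0258). With the endothelial level as a covariate the difference was 1.14 for Socs3 (adjusted p = 0.013) and 1.01 for Cish (adjusted p = 0.0168), both called. With the 3 MaSC arrays brightest for endothelial markers left out, 1 SSKO array remained, which was assumed to vary like the other groups. Then only Stat5a, Stat5b and Jak2 were called, while the differences of the genes that lost their call were 0.52 for Stat3, -0.46 for Stat6, 0.48 for Jak1 and 0.56 for Socs2.

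The Luminal and MaSC fractions also differ in other cells' markers, above all those of fibroblasts. In bulk samples fewer cells of a type and less RNA per cell cannot be told apart. All 8 fibroblast markers tested were lower in control Luminal cells, with array means from 7.23 to 7.87 in control Luminal cells and from 10.14 to 11.50 in control MaSCs. Of 8 immune markers 3 were called lower, with array means from 7.01 to 7.34 in control Luminal cells and from 7.52 to 8.06 in control MaSCs. All 12 endothelial markers had differences below 0 and 1 was called, with array means from 7.82 to 8.30 in control Luminal cells and from 8.31 to 9.92 in control MaSCs. The share called was 37.5% for the immune and 8.33% for the endothelial markers. Over all genes tested, 44.3% were called and 19.7% were called lower. The lowest single values of these lists were 5.31, 5.73 and 6.47 on the log2 scale, so no marker tested was listed at an intensity of 0. Their part in the differences of the 9 genes was not tested.

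Around the 9 genes, the rest of the pathway was read from lists of receptors, ligands, inhibitors and target genes. In SSKO MaSCs against control MaSCs no gene was called in the lists of receptors (15 tested), ligands (8), further JAK and STAT genes (2), further SOCS genes (5), PIAS and phosphatase inhibitors (11), STAT5-dependent alveolar genes (14) and STAT3-linked genes (16). The median differences of these lists were between -0.05 and 0.07. Among the genes of smallest unadjusted p were Csn3 at -0.79, Ccnd1 at 0.89, Lepr at 0.93 and Csf2rb at 0.77, each with a limma adjusted p that rounded to 1. The prolactin receptor Prlr and the kinase Jak3 were not analysed here, as no probe set gave either as its only symbol.

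**Figure D4:**
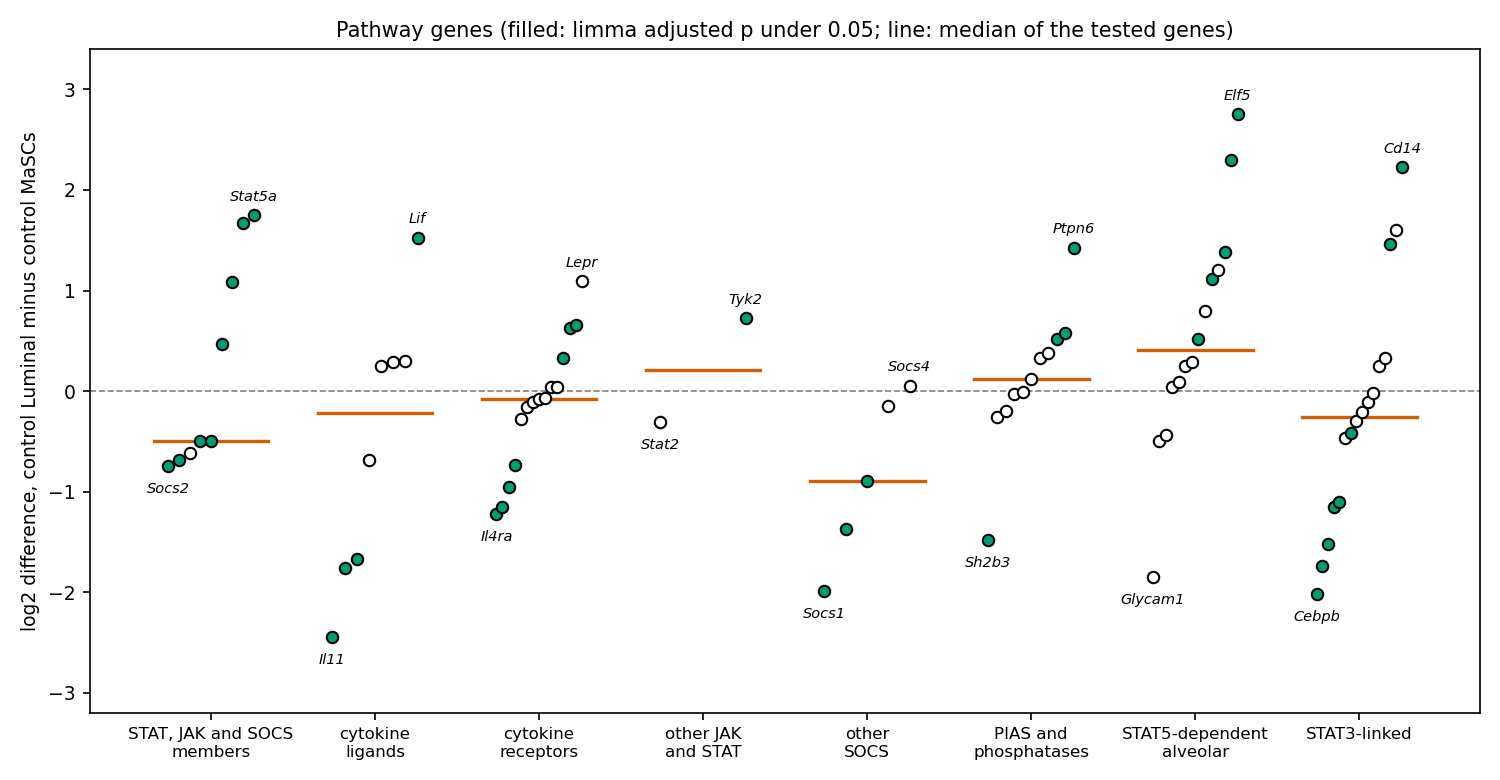
Log2 difference, control Luminal cells minus control MaSCs, of every tested gene in each pathway list, with the 9 genes at the left; filled points are genes called at an adjusted p under 0.05 and lines are list medians. The further SOCS genes include 3 called below 0, and Elf5 has the highest point among the STAT5-dependent genes.

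Of the 5 further SOCS genes, 3 were called lower and none higher in control Luminal cells than in control MaSCs. Over all genes tested, 44.3% were called and 19.7% were called lower, and 5 genes are few to set against these shares. Socs1, an inhibitor that binds Jak kinases and limits interferon and prolactin signalling, had log2 values of 9.76, 9.99 and 9.37 in SSKO MaSCs, 7.46, 7.55 and 8.20 in control Luminal cells and 9.60, 9.81, 9.80 and 9.67 in control MaSCs. The Luminal arrays were well below both MaSC groups, and their difference from control MaSCs was -1.98 (standard error 0.20, limma adjusted p = 9.8e-06). Socs7 differed by -1.37 (limma adjusted p = 0.000322) and Socs5 by -0.90 (limma adjusted p = 0.000871). Socs4 and Socs6, at 0.05 and -0.15, were not called. The median of the 5 was -0.90, against 0.07 over all genes.

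Receptors were called in 7 of 15, a share near the 44.3% of all genes, with 3 higher and 4 lower in control Luminal cells and a median difference of -0.08. Il4ra, the receptor chain that signals to Stat6, had log2 values of 10.92, 10.71 and 11.06 in control Luminal cells, against 11.94, 12.28, 12.27 and 11.97 in control MaSCs. It was lower in every Luminal array (difference -1.22, standard error 0.13, limma adjusted p = 2.26e-05), whereas Stat6 was higher. Il13ra1, a receptor chain of interleukin-13, was named outside the rule for list genes. It ran with Stat6, from 12.11 to 12.27 in control Luminal cells and from 11.66 to 12.00 in control MaSCs. Ifngr2 was among the receptors called higher, from 11.11 to 11.25 in control Luminal cells and from 10.26 to 10.81 in control MaSCs. Ghr, the growth hormone receptor, differed by -0.95 (standard error 0.21, limma adjusted p = 0.00304), whereas Stat5b was higher. Osmr, the oncostatin M receptor, differed by -0.74 (standard error 0.11, limma adjusted p = 0.000239). Ligands were called in 4 of 8, also near the share of all genes, with 1 higher and 3 lower and a median of -0.22. Il11 differed by -2.44 (limma adjusted p = 1.66e-05) and Lif, another ligand of the interleukin-6 family, by 1.53 (limma adjusted p = 0.0116).

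Tyk2, the kinase partner of Jak1 at interferon receptors, was higher in control Luminal cells by 0.72 (limma adjusted p = 0.0017). Of 11 PIAS and phosphatase inhibitors, 3 were called higher and 1 lower, with a median of 0.12. The share called was below the 44.3% of all genes. Ptpn6, the phosphatase SHP-1, differed by 1.42 (limma adjusted p = 1.15e-05) and Sh2b3, an adaptor that restrains Jak2, by -1.48 (limma adjusted p = 1.64e-05).

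Genes listed as STAT5-dependent were called in 5 of 14, all higher in control Luminal cells, with a median difference of 0.40. That share is below the 44.3% of all genes that were called. Elf5, an alveolar transcription factor downstream of prolactin, had log2 values of 7.07, 6.67 and 6.54 in SSKO MaSCs, 9.91, 9.96 and 10.03 in control Luminal cells and 7.78, 7.18, 7.25 and 6.63 in control MaSCs. The Luminal arrays were above both MaSC groups, which overlapped, and the difference from control MaSCs was 2.75 (standard error 0.23, limma adjusted p = 2.7e-06). Wnt4 differed by 2.30 (limma adjusted p = 0.00017) and the milk protein gene Csn3 by 1.38 (limma adjusted p = 0.00048). Elf5 and Csn3 are also on the list of luminal progenitor markers. All 8 tested markers of that list were called, 6 higher and 2 lower in control Luminal cells, with a median difference of 2.47. Whether Elf5, Csn3, Wnt4 or other genes listed as STAT5-dependent follow STAT5 or the cell type was not tested. STAT3-linked genes were called in 8 of 16, near the share of all genes, with 2 higher and 6 lower and a median of -0.25. Cebpb differed by -2.02 (limma adjusted p = 4.06e-06) and the survival gene Bcl2l1 by 1.47 (limma adjusted p = 3.84e-06).

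Genes with the most similar pattern were found by Pearson's r over the 10 arrays among 14506 genes. These values describe arrays that share 3 groups, most of the spread being that between Luminal cells and MaSCs. For Stat5a they were Slc45a3 (r = 0.994) and Dlg3 (r = 0.993). For Stat5b they were Trim24 (r = 0.996) and Mgat5 (r = 0.992). For Jak2 they were Ern1 (r = 0.984) and Zbtb8b (r = 0.981), for Jak1 Degs1 (r = 0.989) and Cpne2 (r = 0.988), for Stat3 Lrig1 (r = 0.992) and Zfp608 (r = 0.987), and for Stat6 Rreb1 (r = 0.991) and Avl9 (r = 0.984). Socs2 was nearest to Rgs2 (r = 0.988) and Armcx6 (r = 0.977). Cish had lower highest values, with Cebpa (r = 0.948) and Mex3a (r = 0.946).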

How the data were processed

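Total RNA of 10 sorted mouse mammary samples was measured on Affymetrix arrays. The deposited values are linear intensities, 1 for every probe set on each array. Per the submitters' processing notes, Affymetrix Expression Console 1.1 and PLIER 2.0 were used. The role of each tool and any normalization between arrays were not described in the labels. The number of arrays limits the precision.

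Of 28815 probe sets, 21780 had exactly 1 gene symbol. Values were taken as log2(intensity + 16), so changes of dim genes are understated. The dimmest 25% of probe sets (mean under 6.74) were left out, and the brightest probe set stood for each of 15815 genes. All arrays entered 1 limma 3.58.1 fit with 3 group means (lmFit, eBayes, two-sided, Benjamini-Hochberg over all genes) in R 4.3.3. It had 7 residual degrees of freedom and was checked on simulated data. Promoter motifs and figures used Python 3.11.15 and matplotlib 3.10.9.

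The 9 genes and the gene lists were chosen with earlier results of these data known. Named list genes were up to 4 called members of smallest p per list and comparison, or up to 2 uncalled ones given as values. Il13ra1, Socs4, Socs6, Csn2, Csn1s1 and Glycam1 were named outside this rule. For each called member the 2 genes of highest correlation were also named. Alternatives were other pseudocounts, filters, probe set rules, scalings, fits and arrays left out. A planned comparison of the Stat5a and Stat5b proteins was not made, as no protein sequence was used here. No scan batch was given in the sources used here, so batches were not examined.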

Additional observations from a re-analysis of the deposited data

Results flagged for a closer look

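One value stood apart within its group. Jak2 in control MaSC array 1 was 10.57 on the log2 scale, below the 10.75 to 10.79 of the other control MaSC arrays, and its gap was 0.84 of the group's range, above Dixon's 95% critical value for 4 arrays. The 9 genes were examined in this way in control MaSCs, the only group of 4, and by chance about 1 in 20 such groups would stand apart. The difference of Jak2 between control Luminal cells and control MaSCs was called with this array and without it.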

How the results depend on the processing

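In SSKO MaSCs against control MaSCs no member was called under any of the 23 alternatives, and the small differences changed sign in places. Centring the arrays gave Jak2 -0.0174. The replicate block gave Stat6 0.0354 and Socs3 -0.00703. The endothelial covariate gave Stat6 0.0161 and Cish 0.101. Leaving out the 3 MaSC arrays brightest for endothelial markers, chosen after seeing the data, gave Stat3 0.000895, Jak2 -0.0302 and Cish 0.112, and gave Stat5b -0.36 in place of -0.11, not called in either. With 1 array left out, values ran from -0.0529 to 0.0354 for Stat6, -0.0255 to 0.0796 for Jak2, -0.126 to 0.272 for Socs3 and -0.223 to 0.0785 for Cish. The count of genes called among all genes was 6, against 3 after quantile normalization, 2 without control MaSC array 2, 27 without SSKO array 2, 1 without SSKO array 3 and 0 without the 3 arrays.

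In control Luminal cells against control MaSCs, 7 to 9 members were called throughout, and Jak1, Jak2, Stat3, Stat5a, Stat5b, Stat6 and Socs2 were called in each alternative. Socs3 was called with array weights (adjusted p = 0.0483), the endothelial covariate (0.012), the replicate block (0.0353) and without the 3 arrays (0.0176). In SSKO MaSCs against control Luminal cells, 5 to 9 members were called with 1 array left out and 3 without the 3 arrays, where 4031 genes were called in all against 6682. Centring the arrays moved the median of all genes in this comparison to -0.11, and Socs2 was not called (0.55, adjusted p = 0.0558). The endothelial covariate ended the calls of Socs2 (0.45, adjusted p = 0.242) and Stat6 (-0.42, adjusted p = 0.073). The causes were not tested.

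Same-numbered SSKO and control MaSC arrays deviated together with correlations of 0.63, 0.46 and 0.05, and SSKO array 3 correlated best with control array 4, so the numbers were not taken as pairs. For Luminal and control MaSC arrays the correlations lay between -0.08 and -0.06. With the replicate block, 0, 9 and 9 members were called in the 3 comparisons.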

Other observations

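The casein genes Csn2 and Csn1s1 of the STAT5-dependent list varied between arrays of 1 group more than any of the 9 pathway genes did. Csn2, which encodes beta-casein, had log2 values of 9.26, 6.40 and 6.11 in SSKO MaSCs, 10.42, 10.23 and 6.90 in control Luminal cells and 11.58, 10.18, 8.78 and 6.04 in control MaSCs. Csn1s1, which encodes an alpha-casein, had values of 8.54, 6.16 and 5.34 in SSKO MaSCs, 10.66, 12.07 and 7.47 in control Luminal cells and 11.58, 9.14, 9.16 and 5.58 in control MaSCs. The groups overlapped in both genes, and neither was called in any comparison (limma adjusted p between 0.0872 and 1). Both genes were chosen here after their values were seen. So was Glycam1 of the same list, with 16.18, 7.45 and 15.25 in SSKO MaSCs and 14.16, 7.99, 7.56 and 7.70 in control MaSCs. In control Luminal cells it lay between 7.32 and 7.66. Its high values were on the 3 MaSC arrays brightest for endothelial markers, and the part of other cells in this list was not tested.

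The genes that flank the STAT cluster on chromosome 11 did not share 1 direction in control Luminal cells against control MaSCs. Next to Stat5b, Ghdc differed by 0.85 (limma adjusted p = 0.000654). Next to Stat3, Cavin1, a caveolar coat gene, differed by -2.20 (limma adjusted p = 1.62e-07), and beyond it Atp6v0a1, a proton pump subunit, by 1.15 (limma adjusted p = 3.72e-05). The neighbours were chosen by position in the RefSeq annotation of GRCm38.p6.

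Immediate early genes, which respond to tissue dissociation, were called in 7 of 15 in control Luminal cells against control MaSCs, 5 higher and 2 lower, with a median difference of 0.16. That share is near the 44.3% of all genes called in this comparison. Gadd45b differed by -1.36 (limma adjusted p = 0.000219) and Atf3 by 0.85 (limma adjusted p = 0.00253). None of the 15 was called in SSKO MaSCs against control MaSCs.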
